A study of Mus musculus with 4 samples.

Results

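The circadian clock and its output were followed through 10 genes, Per1, Per2, Per3, Nr1d1, Nr1d2, Dbp, Tef, Arntl, Ciart and Noct, chosen by symbol from the 31053 genes of the feature lists. All 10 were found, each with 1 entry. They were measured by single-cell RNA sequencing (10x Genomics 3' chemistry) in brain vascular-associated cells of male wild-type C57BL/6 mice aged 12 to 14 weeks, taken after CD31 microbead enrichment. In the chronic social defeat (CSD) condition each mouse lived for 14 days beside an aggressive CD-1 mouse, and met it without the partition for 5 min a day. Each home cage (HC) control also lived beside a CD-1 mouse for 14 days, but the partition between them was never removed. Each library pooled the cells of 4 mice, and the 2 libraries of a condition (CSD 1, CSD 2, HC 1 and HC 2) are its replicates. All mice were kept on a 12-h light/dark cycle with lights off at 9 AM. The hour at which the brains were taken is not given in the sources used here, and a difference in that hour between libraries cannot be told apart from the other differences between them.

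The clock is a feedback loop of transcription. ARNTL (BMAL1) pairs with CLOCK and binds E-box sequences, among them those of the Per, Cry and Nr1d genes, whose products repress the loop or Arntl itself. DBP and TEF carry the rhythm to D-box genes, and in most tissues the Arntl transcript peaks at about the opposite time of day to Dbp. Glucocorticoids act on Per1 directly and help to set clocks outside the hypothalamus.

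Of the member promoters with a motif that was searched, 4 are shown, so that each motif found is seen at least once. Each is 250 bases before to 50 bases after a RefSeq start site (GRCm38.p6), 5′ to 3′ on the gene's strand, with capitals marking an E-box in Ciart and Per1, a D-box in Per3 and a ROR/REV-ERB element in Arntl. They lie at chr3:95882179-95882478 (minus strand, Ciart), chr11:69098699-69098998 (plus strand, Per1), chr4:151044616-151044915 (minus strand, Per3) and chr7:113207261-113207560 (plus strand, Arntl).
Ciart: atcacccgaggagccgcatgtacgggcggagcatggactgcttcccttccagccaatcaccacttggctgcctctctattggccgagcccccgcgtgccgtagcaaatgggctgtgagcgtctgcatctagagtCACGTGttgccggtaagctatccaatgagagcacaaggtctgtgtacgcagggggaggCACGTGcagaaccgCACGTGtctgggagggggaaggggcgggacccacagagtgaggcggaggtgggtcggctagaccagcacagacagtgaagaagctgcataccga
Per1: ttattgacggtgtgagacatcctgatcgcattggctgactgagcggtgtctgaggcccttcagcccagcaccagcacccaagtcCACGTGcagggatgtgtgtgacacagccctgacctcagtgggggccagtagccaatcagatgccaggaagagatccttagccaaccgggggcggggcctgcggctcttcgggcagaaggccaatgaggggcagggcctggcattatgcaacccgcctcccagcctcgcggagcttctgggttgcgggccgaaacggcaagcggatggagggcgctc
Per3: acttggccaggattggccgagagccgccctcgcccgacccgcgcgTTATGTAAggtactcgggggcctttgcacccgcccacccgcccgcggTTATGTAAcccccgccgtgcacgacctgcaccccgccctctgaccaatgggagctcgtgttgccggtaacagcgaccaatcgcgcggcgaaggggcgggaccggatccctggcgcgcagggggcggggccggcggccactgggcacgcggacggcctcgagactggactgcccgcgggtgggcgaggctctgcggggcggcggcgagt
Arntl: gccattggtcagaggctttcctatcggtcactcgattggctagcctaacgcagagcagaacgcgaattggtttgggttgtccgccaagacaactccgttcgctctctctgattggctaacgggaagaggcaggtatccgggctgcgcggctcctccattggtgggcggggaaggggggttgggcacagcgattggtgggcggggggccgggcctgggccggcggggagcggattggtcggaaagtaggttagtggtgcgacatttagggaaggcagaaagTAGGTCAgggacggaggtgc
The table held 12 promoters of 9 members, with 2 start sites each for Per1, Tef and Arntl. The E-box CACGTG stood in 4 of the 12, those of Ciart (beginning 116, 58 and 44 bases before the start), Per1 (166 bases before 1 of its starts) and both of Tef. Among all 32851 promoters 7.15% held it. The D-box, searched as TTATGTAA or TTACGTAA on both strands, stood in Per3 only, 205 and 158 bases before the start, against 1.06% of all promoters. The ROR/REV-ERB element, searched as TAGGTCA or TGGGTCA, stood in 1 Arntl promoter, 30 bases after the start, against 6.45% of all. No member promoter held the cyclic AMP response element TGACGTCA (1.79% of all) or a glucocorticoid response element, searched as GNACA and TGTNC 3 bases apart (0.475% of all), in these windows. These are matches of letters only.

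The libraries held 27297599 to 30361474 UMIs (unique molecular identifiers) and 14415 cells, 4079 in CSD 1, 2553 in CSD 2, 2849 in HC 1 and 4934 in HC 2. CSD 2 stood apart: 32.6% of its UMIs lay in cells, against 51.8% to 56.8% in the other libraries. Library pairs shared 0 to 9 cell barcodes. Cells were placed in classes by marker genes, none of them a clock gene, and 9 classes had at least 10 cells in every library. In each of the 9 classes at least 7 of its own markers were highest in that class, 10 of 10 in endothelial cells (EC) and microglia. The same markers had placed the cells, so these counts describe the gate and are no separate support for the class names. Levels are given as CPM, the UMIs of a gene scaled to 1000000 UMIs of all cells of the class in that library, with SD over the 4 libraries. Such sums can hold free RNA. In barcodes of at most 100 UMIs the level of Dbp was 115 to 148 CPM, that of Tef 80.4 to 140.4 CPM and that of Ciart 12.8 to 14.9 CPM.

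**Figure D1:**
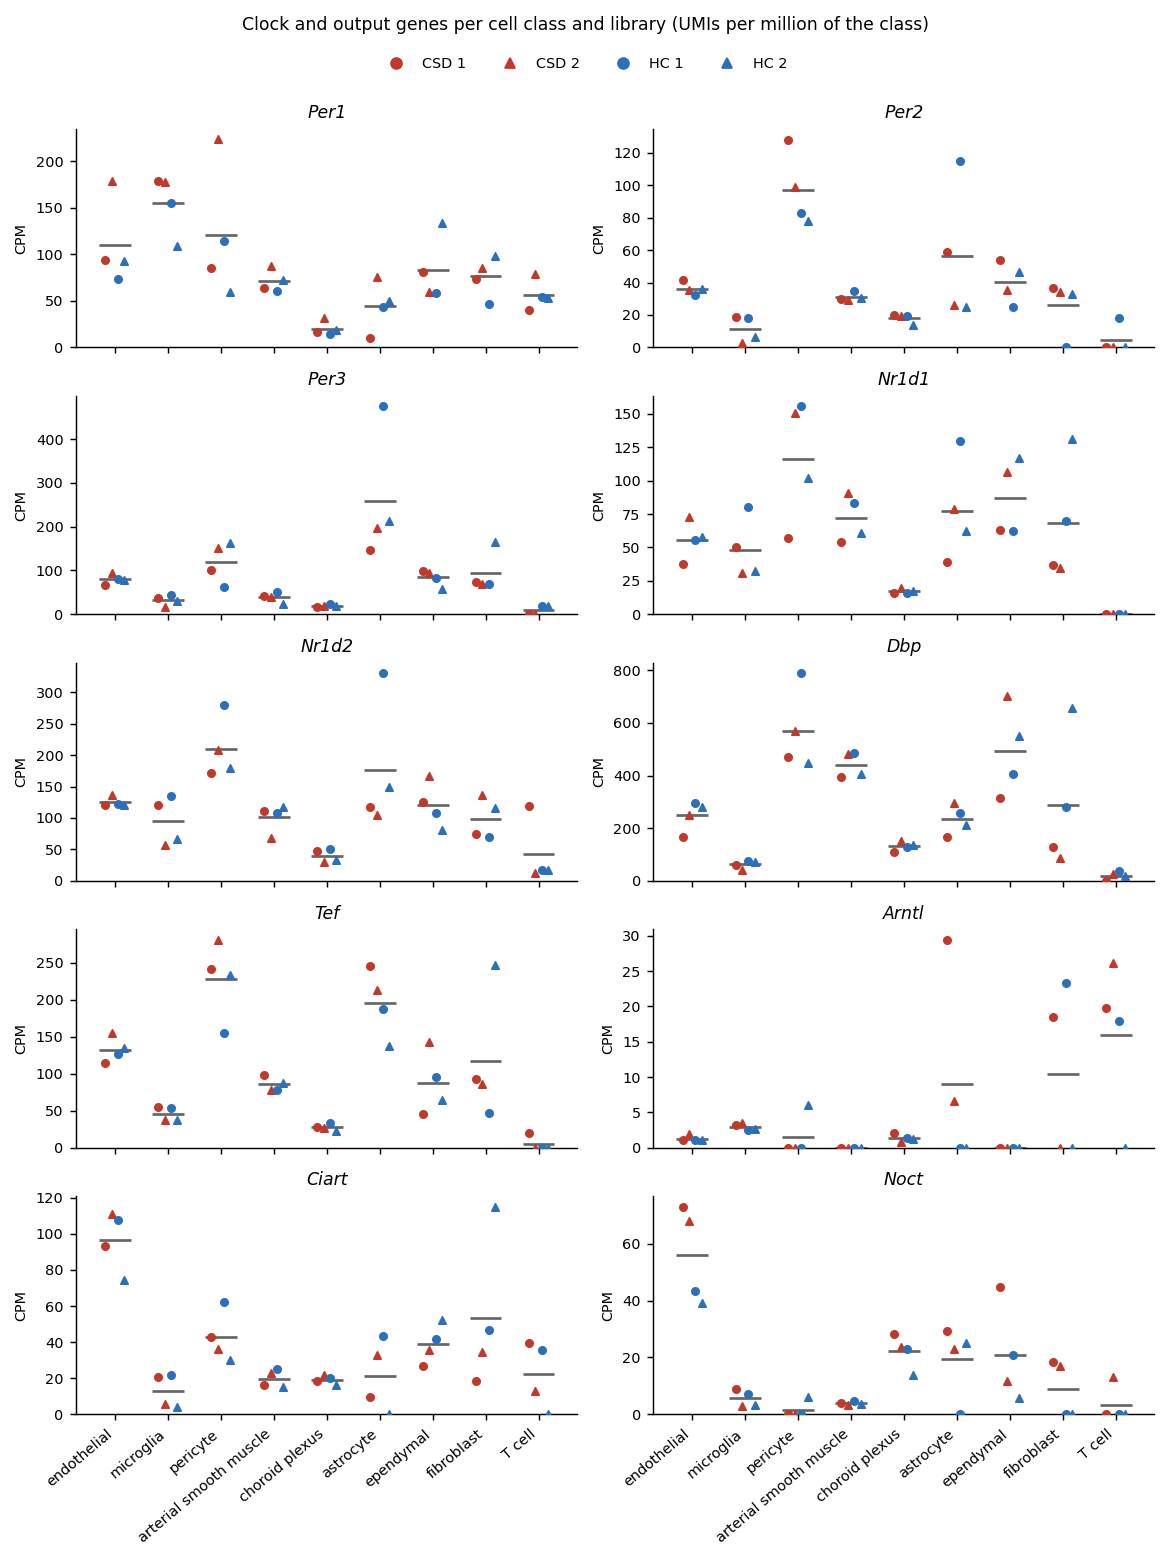
Level of each member (CPM, linear axis from 0) in 9 cell classes, with 1 point a library, CSD in red, HC in blue, circles for libraries numbered 1, triangles for those numbered 2, and a bar at the mean of the 4. Ciart and Noct had their highest mean in endothelial cells, at 96.6 and 55.8 CPM, Per1 in microglia at 155 CPM, and Dbp in pericytes at 569 CPM.

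The members did not share 1 order of classes. Per1 was highest in microglia, Ciart and Noct in EC, Per3 in astrocytes, and Per2, Nr1d1, Nr1d2, Dbp and Tef in pericytes. With the classes of a member ordered by mean level, the libraries of neighbouring classes overlapped in most cases, and 11 of 80 neighbouring pairs were apart, 3 each for Dbp and Tef. Only neighbours in the order were compared, and the share over all genes was not computed. The 1 pair apart for Arntl set 2 to 4 UMIs a library in EC against 0 in arterial smooth muscle. To test levels, each class was set against the mean of the other classes (edgeR, library as a block, Benjamini-Hochberg over 7950 genes), and 8 of the 10 members passed the filter on low counts, Noct and Arntl not. In EC 5 of the 8 were higher and 0 lower, where 35.0% of all genes were higher. Without CSD 2 there were 2 higher, Ciart and Tef, where 1812 of 6209 genes were higher. In pericytes 6 were higher (16.7% of all genes), and in microglia 2 were higher (41.8% of all genes), Per1 and Nr1d1, and 3 lower (15.2% of all genes). Since T cells held few or no UMIs of most members, the fit was repeated over the 6 classes with at least 30 cells in every library, a choice made after the data were seen. It tested 9 members, Noct included. In microglia it gave 1 higher (Per1, where 39.2% of all genes were higher) and 5 lower (24.8% of all genes), with a median of -0.88 over the members instead of -0.38. T cells, 18 to 38 a library, held at most 14 UMIs of any member over the 4 libraries.

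Per1, the period gene that answers fastest to hormones and to stimulation of the cell, had 179, 178, 155 and 109 CPM in microglia of CSD 1, CSD 2, HC 1 and HC 2. In choroid plexus cells it had 16.7, 31.2, 14.0 and 18.2 CPM, so every microglia library lay above every choroid plexus library. The log2 difference of microglia from the other classes was 1.65 (SE 0.14, edgeR adjusted p = 4.1e-16), and that of the choroid plexus -1.38 (SE 0.18, adjusted p = 9.9e-10). EC were higher by 0.56 (SE 0.15, adjusted p = 0.0013). Per1 had 155 ± 33 CPM in microglia and 121 ± 72 CPM in pericytes, and these neighbours in its order overlapped.

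The other period genes, which form the repressing complex with the cryptochromes, were placed otherwise. Per2 in pericytes had 128, 98.9, 83.0 and 77.8 CPM, from 49 UMIs in all. In EC it had 41.5, 35.6, 32.0 and 35.9 CPM, a narrow range. The log2 difference of pericytes from the other classes was 1.90 (SE 0.35, adjusted p = 1.7e-05). Microglia were lower by the same test, with -0.94 (SE 0.41, adjusted p = 0.045). T cells held 1 Per2 UMI in all, in HC 1, so that without HC 1 this difference could not be estimated (SE 22.5), and without HC 2 it did not pass (-0.88, adjusted p = 0.072). In the fit over the 6 classes of at least 30 cells, which leaves T cells out, it was -1.47 (SE 0.21, adjusted p = 2.2e-08) in microglia and 1.47 (SE 0.31, adjusted p = 0.0002) in pericytes. Per3 in astrocytes had 147, 197, 475 and 212 CPM, and no library of another class except 1 of fibroblasts and 2 of pericytes exceeded the lowest of these. Its log2 difference there was 2.31 (SE 0.25, adjusted p = 1.9e-11), and 1.89 to 3.79 over 8 alternative settings, the fit over 6 classes among them. T cells held 2 Per3 UMIs in all. In EC Per3 had 67.2, 95.1, 79.6 and 78.3 CPM.

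Ciart, a repressor of CLOCK and ARNTL known also as CHRONO, had its highest mean level in EC, with 93.5, 111, 108 and 74.5 CPM. It had 115 CPM in fibroblasts of HC 2, from 7 UMIs, above every EC library. In arterial smooth muscle it had 16.1, 22.7, 25.4 and 15.2 CPM, and in the choroid plexus 18.8, 21.9, 20.4 and 16.1 CPM, little above the free RNA. EC exceeded the mean of the other classes by 1.80 on the log2 scale (SE 0.18, adjusted p = 5.8e-13), and microglia fell below it, with -1.02 (SE 0.25, adjusted p = 0.00044). Noct, which encodes the rhythmic phosphatase nocturnin, had 73.0, 68.0, 43.3 and 39.1 CPM in EC. Every EC library lay above every library of the choroid plexus, the next class in order, at 28.3, 23.6, 22.8 and 13.8 CPM. Ependymal cells of CSD 1, with 44.9 CPM from 5 UMIs, lay above EC of HC 1 and HC 2. Noct had 2.79 to 8.82 CPM in microglia and 1 UMI in all in pericytes. In the fit over 6 classes EC were higher in Noct by 2.77 (SE 0.22, adjusted p = 1.5e-16), and the choroid plexus by 2.05 (SE 0.24, adjusted p = 9.7e-11). The classes they were set against included pericytes and arterial smooth muscle, with 1 and 6 Noct UMIs in all. The choroid plexus, at 22.1 ± 6.1 CPM, overlapped astrocytes, at 19.3 ± 13.2 CPM. In that fit EC were higher in 4 of 9 members (31.0% of all genes), Ciart, Noct, Per1 and Tef, while Per3 and Nr1d2 no longer passed.

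Dbp and Tef, the PAR bZIP activators of D-box genes, differed in their classes. Both were highest in pericytes, and Dbp alone was also high in arterial smooth muscle. Dbp had 470.4, 567, 789 and 449 CPM in pericytes. Arterial smooth muscle had 394, 482, 485 and 405 CPM. Microglia had 61.4, 42.5, 75.3 and 72.7 CPM, below the free RNA of their own libraries. The log2 difference from the other classes was 1.42 (SE 0.19, adjusted p = 7.8e-09) in pericytes, 1.49 (SE 0.16, adjusted p = 1.7e-11) in arterial smooth muscle and -1.42 (SE 0.23, adjusted p = 2.9e-07) in microglia. T cells held 5 Dbp UMIs in all. Over 8 alternative settings, the fit over 6 classes among them, these differences ran from 1.07 to 1.87, from 1.23 to 1.92 and from -1.88 to -1.28. Ependymal cells were higher as well, by 1.24 (SE 0.19, adjusted p = 1.9e-07), from 285 UMIs. Tef had 242, 281, 156 and 233 CPM in pericytes and 114, 155, 126 and 135 CPM in EC. Its difference was 1.71 (SE 0.23, adjusted p = 1.5e-08) in pericytes, 1.65 (SE 0.25, adjusted p = 1.3e-07) in astrocytes and 1.004 (SE 0.18, adjusted p = 2.4e-06) in EC. T cells held 1 Tef UMI in all, and in the fit over 6 classes these differences were smaller, 1.09 (SE 0.18, adjusted p = 1.4e-06), 0.89 (SE 0.19, adjusted p = 9.1e-05) and 0.44 (SE 0.12, adjusted p = 0.0015). Unlike Dbp, Tef in arterial smooth muscle did not pass (0.49, SE 0.24, adjusted p = 0.11), and its 77.7 to 98.4 CPM lay within or below the range of the free RNA.

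Nr1d1 and Nr1d2, which encode the REV-ERB repressors of Arntl, were both highest in pericytes. Nr1d2 had 120.2, 136, 123 and 120.1 CPM in EC, the smallest SD in proportion to its mean of any member there. It had 171, 208, 280.2 and 179 CPM in pericytes, which exceeded the other classes by 1.01 (SE 0.22, adjusted p = 0.00026). This difference ran from 0.69 to 1.22 over 8 alternative settings, the fit over 6 classes among them. The choroid plexus was lower, by -0.66 (SE 0.17, adjusted p = 0.00062). Nr1d1 had 0 UMIs in T cells, so its differences are given from the fit over 6 classes only. There pericytes were higher by 0.85 (SE 0.26, adjusted p = 0.012), the choroid plexus was lower by -1.28 (SE 0.17, adjusted p = 4.3e-09), and microglia had a difference of 0.04 (SE 0.15, adjusted p = 0.87).

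Arntl, the activating partner of CLOCK, was close to the limit of detection in every class. EC of the 4 libraries held 2, 4, 2 and 2 Arntl UMIs. Microglia held 10, 10, 6 and 6 (2.44 to 3.49 CPM), and no UMI was found in arterial smooth muscle or ependymal cells. The free RNA had 1.71 to 2.67 CPM. In EC 3 UMIs correspond to 1.43 to 1.63 CPM, a limit that covers counting error only. Arntl passed the filter on low counts in no class, so the main fits did not test it between CSD and HC.

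The other clock genes were described from a list of 21. Of these 16 were tested between classes, and 9 were higher and 2 lower in EC (35.0% and 11.4% of all genes). In microglia 6 were higher and 4 lower, and in the choroid plexus 2 were higher and 8 lower (38.3% and 21.1% of all genes). Bhlhe40 and Bhlhe41, paralogous E-box repressors (DEC1 and DEC2), were placed in opposite ways. Bhlhe40 had 253, 277, 183 and 165 CPM in EC and 4.10, 4.88, 3.26 and 3.05 CPM in microglia. Bhlhe41 had 11.5, 7.60, 14.4 and 9.78 CPM in EC and 75.3, 74.9, 121 and 114 CPM in microglia. In microglia the log2 difference from the other classes was -4.63 for Bhlhe40 (SE 0.24, adjusted p = 1.0e-24) and 2.49 for Bhlhe41 (SE 0.21, adjusted p = 1.1e-15). Astrocytes and arterial smooth muscle carried both. Rora, an activator of Arntl, had 123 ± 7.6 CPM in EC and 19.1 ± 4.8 CPM in microglia, where it was lower by -2.15 (SE 0.15, adjusted p = 1.6e-19). Clock was nearly level, at 52.8 ± 7.8 CPM in EC, 50.4 ± 13.3 CPM in microglia and 56.5 ± 19.8 CPM in pericytes. Of the cryptochromes, Cry2 was higher in arterial smooth muscle (1.23, SE 0.23, adjusted p = 1.1e-05) and lower in EC (-1.10, SE 0.22, adjusted p = 2.4e-05), and Cry1 had 30.5 ± 2.0 CPM in EC and 14.9 ± 6.0 CPM in microglia. Nfil3, the repressor that competes with DBP at D-boxes, had 0.48 to 2.63 CPM in EC, 5.04 to 16.4 CPM in microglia and 9.24 to 35.6 CPM in arterial smooth muscle.

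**Figure D2:**
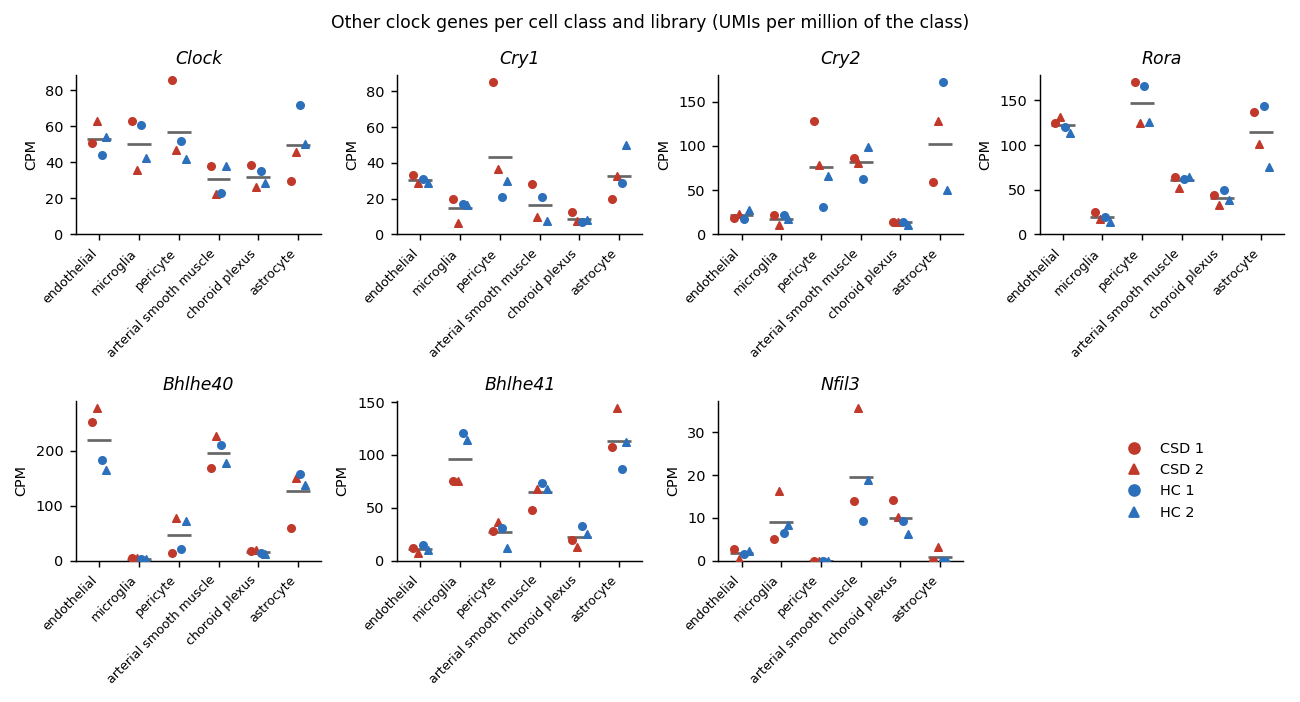
Level (CPM, linear axis from 0) of 7 other clock genes in the 6 classes with at least 30 cells in every library, with 1 point a library, colours and shapes by condition and number, and a bar at the mean of the 4. Bhlhe40 was near 0 in microglia (3.05 to 4.88 CPM) and high in endothelial cells and arterial smooth muscle, and Bhlhe41 was low in endothelial cells.

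CSD was then compared with HC in each class, by sums per library (edgeR, Benjamini-Hochberg over all genes of the class). No member passed in any class. In EC 9 members were tested, all but Arntl, and 0 passed, where 0.0502% of all genes (5 of 9970) did. In the same fit 2 of the 9 members had an unadjusted p under 0.05, as did 810 of 9970 genes. Of the 9 estimates 8 were above 0, with a median of 0.15 against 0.01 over all genes. DESeq2 gave an adjusted p to only 3591 genes in EC, and called 60 of these and 0 members. A member without an adjusted p could not be called. Both CSD libraries lay above both HC libraries for 2 of the 9 members tested (20.1% of all genes), Noct and Per1, and below for 1 (18.6% of all genes), Dbp. The 20.1% and 18.6% were counted after TMM scaling of the libraries, the named genes on CPM without it. The place of Per1 rested on 93.5 CPM in CSD 1 against 92.9 CPM in HC 2.

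Noct had the lowest p of the members in EC. Its 73.0 and 68.0 CPM in CSD stood against 43.3 and 39.1 CPM in HC, with no overlap, and the log2 difference of 0.84 (SE 0.16) had an adjusted p of 0.20. Left-out libraries gave 0.76 to 0.94. The summed venous markers in EC moved with it, at 1145 and 1345 CPM in CSD against 899 and 666 CPM in HC, and the few venous EC held 1 and 13 Noct UMIs in CSD and 0 in each HC library. Their part in the difference was not tested. In capillary EC, a subset of the same cells, Noct had 49.8 and 47.5 CPM against 30.1 and 40.2 CPM (0.51, SE 0.22, adjusted p = 0.53). In choroid plexus cells it had 28.3 and 23.6 CPM against 22.8 and 13.8 CPM (0.55, SE 0.23, adjusted p = 0.9994).

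Per1 in EC had 93.5 and 179 CPM in CSD and 73.7 and 92.9 CPM in HC. CSD 2 stood far above the other libraries, while CSD 1 was level with HC 2. The log2 difference was 0.78 (SE 0.28, adjusted p = 0.56), and 0.24 without CSD 2. In capillary EC Per1 had 88.9 and 172 CPM against 71.8 and 92.3 CPM (0.73, SE 0.25, adjusted p = 0.36), where 0.414% of all genes passed. This estimate was 1.08 without CSD 1 and 0.19 without CSD 2, so 1 library decided it. Such fits kept 1 CSD library, so only their effect sizes are given. Over all genes the calls in capillary EC moved with the settings, from 38 to 7 in cells of at least 1000 UMIs. CSD 2 was also highest for Per1 in pericytes, with 224 CPM against 85.5 CPM in CSD 1 and 114 and 59.8 CPM in HC (1.19, SE 0.44, adjusted p = 0.80). Without CSD 1 the pericyte difference was 1.47, and without CSD 2 it was 0.11. These levels rested on 6 and 43 Per1 UMIs in CSD 1 and CSD 2 and on 11 and 10 in HC 1 and HC 2. In microglia CSD 1 and CSD 2 had 179 and 178 CPM and HC 1 and HC 2 155 and 109 CPM (0.48, SE 0.26, adjusted p = 0.9999).

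Dbp had the lowest estimate of the members in EC. These cells had 166 and 251 CPM in CSD and 296 and 282 CPM in HC, which did not overlap (-0.41, SE 0.20, adjusted p = 0.67). CSD 1 lay further from HC than CSD 2, and over 13 alternative settings the estimate ran from -0.73 to -0.16. Microglia had 61.4 and 42.5 CPM against 75.3 and 72.7 CPM (-0.48, SE 0.23, adjusted p = 0.9999). Fibroblasts had the widest gap, 129 and 85.8 CPM from 7 and 5 UMIs against 279.8 and 657 CPM from 12 and 40 UMIs (-2.11, SE 0.60, adjusted p = 0.40). These rested on 10 to 37 cells a library, and over 10 alternative settings the estimate ran from -2.66 to -1.29. Pericyte markers in these fibroblasts were at 443 and 823 CPM in CSD against 1329 and 2794 CPM in HC, and fibroblast markers at 13335 and 14545 CPM against 21168 and 34370 CPM, and the part of neither in the Dbp difference was tested. In arterial smooth muscle, where Dbp was abundant, it was 394 and 482 CPM against 485 and 405 CPM, and the difference was -0.07 (SE 0.21, adjusted p = 0.997). Tef, Nr1d2 and Per3 in EC had differences of 0.11 (SE 0.17), 0.15 (SE 0.14) and 0.11 (SE 0.19).

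**Figure D3:**
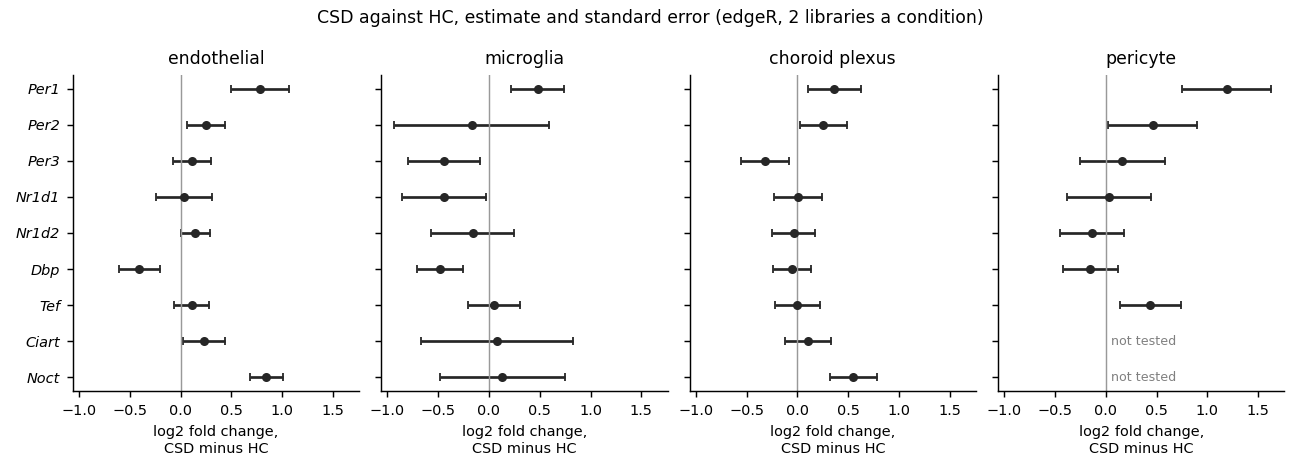
Log2 fold change of CSD minus HC for 9 members in 4 classes, points with bars of 1 standard error, from edgeR fits on 2 libraries a condition. Noct (0.84) and Per1 (0.78) had the highest estimates in endothelial cells and Dbp (-0.41) the lowest, and no member passed the adjusted threshold in any panel.

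In microglia 9 members were tested and 0 passed, where 0.0% of all 9927 genes passed. At an unadjusted p under 0.05 there were 0 members and 127 genes, and DESeq2 called 1 gene. In pericytes 7 members were tested (0.0404% of all genes passed), in arterial smooth muscle 7 (0.0%), in the choroid plexus 9 (0.0737%), in ependymal cells 6 (0.0%), in astrocytes 4 (0.227%) and in fibroblasts 1 (0.0%), and none passed. Among arterial EC 3 members were tested (0.0883%) and 0 passed. In T cells and venous EC no member passed the filter. The effects in EC and microglia were also compared with each other by an interaction term. No member differed, with 0.0% of 11223 genes called and 344 genes at an unadjusted p under 0.05. The largest estimate was that of Noct, 0.73 higher in EC (SE 0.51, adjusted p = 1.0).

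The libraries of microglia differed in another way, by their number. Ciart had 20.5 and 21.6 CPM in CSD 1 and HC 1 and 5.93 and 3.92 CPM in CSD 2 and HC 2. Per2 had 18.9 and 18.3 CPM in the libraries numbered 1 and 2.79 and 6.53 CPM in those numbered 2. The free RNA lay between the 2 numbers for both, at 12.8 to 14.9 CPM of Ciart and 10.9 to 15.4 CPM of Per2, and its 9.06 to 11.7 CPM of Noct exceeded every microglia library. Nr1d2 had 120.0 and 134 CPM against 56.8 and 67.1 CPM, with 50.5 to 65.8 CPM in the free RNA. Both libraries numbered 1 were above both numbered 2 for 7 of the 10 members (Per2, Per3, Nr1d1, Nr1d2, Tef, Ciart and Noct), where 36.4% of genes with at least 20 UMIs showed that order, and for 0 members the opposite held (17.3% of genes). Per1, Dbp and Arntl did not show it. In EC 0 of the 9 members with at least 20 UMIs had this order and 2 the opposite one, Nr1d1 and Tef, where 13.7% and 20.2% of genes did. In the choroid plexus 3 members had each, where 26.0% and 13.1% of genes did. What the number stands for is not given in the sources used here. The median UMIs of a microglial cell, 1896 and 2693 in the libraries numbered 1 and 4885 and 1849 in those numbered 2, did not follow the number, nor did choroid plexus markers in these cells, 342 and 269 CPM against 29.3 and 328 CPM. Other sums did follow it. The immediate-early and dissociation genes had 31989 and 31725 CPM in the libraries numbered 1 and 28162 and 27196 CPM in those numbered 2, markers of border-associated macrophages 147 and 130.3 CPM against 127 and 108 CPM, those of arterial smooth muscle 98.6 and 104 CPM against 33.8 and 84.1 CPM, and those of B cells 173 and 205 CPM against 223 and 254 CPM. Their part in the pattern was not tested.

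A term for the number beside condition was also fitted, chosen after these values were seen. It gave 5 of 9 members lower in the libraries numbered 2 and 0 higher, where 6.18% of all 9927 genes were lower (edgeR, Benjamini-Hochberg). These were Ciart (-1.94, SE 0.32, adjusted p = 0.0062), Per2 (-1.94, SE 0.37, adjusted p = 0.011), Nr1d2 (-0.92, SE 0.14, adjusted p = 0.0040), Nr1d1 (-0.90, SE 0.19, adjusted p = 0.018) and Per3 (-0.73, SE 0.19, adjusted p = 0.035). By the same term 4 of 18 immediate-early and dissociation genes were lower, Klf4 (-1.08), Fosb (-1.04), Nr4a1 (-0.76) and Egr1 (-0.65), and 4 of 11 glucocorticoid targets, Cdkn1a, Errfi1, Ddit4 and Zbtb16. Of the other core clock and clock-linked genes 16 were tested, and 0 were lower and 0 higher. Summed over their list, these genes still followed the number in microglia. The sum was 984 and 1034 CPM in CSD 1 and HC 1 and 826 and 891 CPM in CSD 2 and HC 2, and was not tested. Single genes went both ways, such as Clock (-0.55, SE 0.16, adjusted p = 0.055) and Nfil3 (1.21, SE 0.41, adjusted p = 0.092). Among the members, Dbp did not pass (-0.17, SE 0.16, adjusted p = 0.57), nor did Per1 (-0.13, SE 0.16, adjusted p = 0.68). In EC and choroid plexus cells 0 of 9 members were called, where 0.0301% and 0.774% of all genes were called, and Per1 in EC was 0.61 higher in the libraries numbered 2 (SE 0.17, adjusted p = 0.41). Whether the number effect differs between classes was not tested. With 2 libraries a number, this pattern rests on 4 pools.

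**Figure D4:**
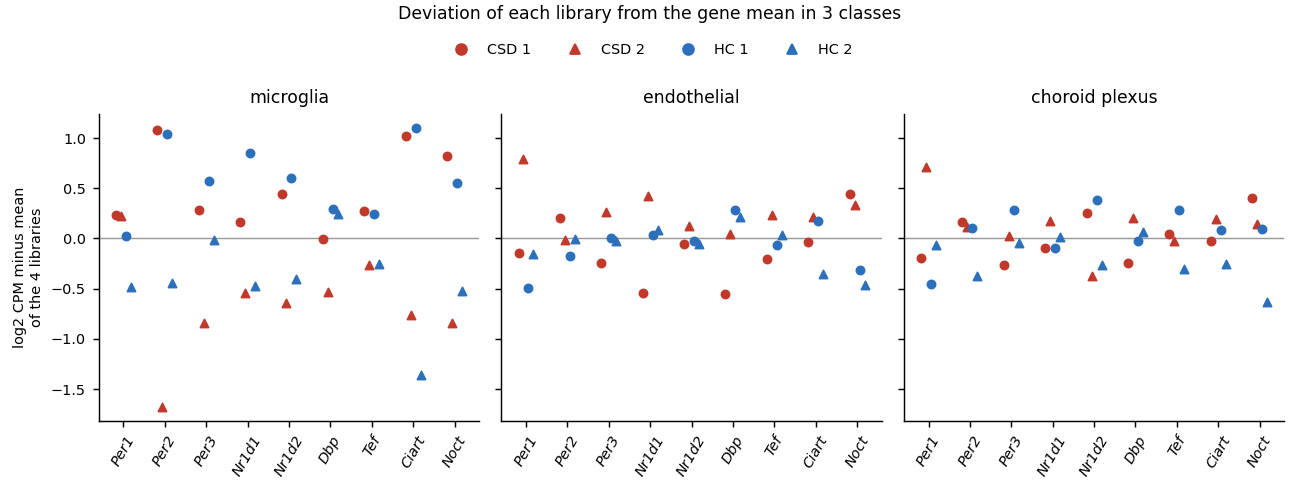
Deviation of each library from the mean of the 4 libraries (log2 CPM) for 9 members in microglia, endothelial cells and choroid plexus cells, with 1 point a library. In microglia the circles (libraries numbered 1) lie above the triangles for Per2, Per3, Nr1d1, Nr1d2, Tef, Ciart and Noct, and in endothelial cells for no member.

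Genes that answer to known inputs of the clock were read from 2 further lists. Of 13 glucocorticoid targets 12 were tested in EC and 12 estimates were above 0, with a median of 0.79 against 0.01 over all genes, and 1 passed (Cdkn1a, 1.54, SE 0.16, adjusted p = 0.039). In capillary EC 4 of 12 passed, Map3k6, Ddit4, Nfkbia and Cdkn1a, where 0.414% of all genes passed. Fkbp5, the glucocorticoid receptor co-chaperone, had 49.9 and 36.1 CPM in CSD and 16.02 and 14.1 CPM in HC in EC (1.57, SE 0.25, adjusted p = 0.15), and in microglia 217 and 161 CPM against 59.0 and 64.0 CPM (1.65, SE 0.25, adjusted p = 0.9999, and 0.013 by DESeq2). Tsc22d3 in EC had 925 and 994 CPM against 569 and 603 CPM (0.78, SE 0.14, adjusted p = 0.18), and Sgk1 379 and 408 CPM against 278 and 252 CPM (0.64, SE 0.15, adjusted p = 0.27). In EC both CSD libraries lay above both HC libraries for these 3, as they did for 20.1% of all genes. Of 18 immediate-early and dissociation genes all 18 estimates in EC were above 0, with a median of 0.61, and 0 passed. In capillary EC 2 passed, Fosb and Hspa1a. Fos had 2624 and 2666 CPM in EC of CSD and 2045 and 2190 CPM in HC (0.39, SE 0.15, adjusted p = 0.58), Junb 2078 and 2569 CPM against 1637 and 1606 CPM (0.59, SE 0.16, adjusted p = 0.37), and Egr1 1459 and 958 CPM against 1246 and 786 CPM (0.32, SE 0.29, adjusted p = 0.83). Summed over the list, these genes had 21178, 25422, 16235 and 17305 CPM in EC, so they moved with Noct and Per1, and their part in those differences was not tested. The summed oligodendrocyte markers in EC were 1457 and 1172 CPM in CSD against 817 and 830 CPM, almost all from Mal (1425 and 1140 CPM against 795 and 786 CPM), while Mog, a defining marker, was at 0 to 0.54 CPM. In the choroid plexus 1 gene of the immediate-early list passed, Hspa1b (1.19, SE 0.25, adjusted p = 0.046).

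Of the 21 other clock genes 16 were tested between CSD and HC in EC, 16 in microglia, 17 in the choroid plexus, 15 in capillary EC and 0 to 11 in the other classes, and 0 were called. Bhlhe40 in EC had 253 and 277 CPM against 183 and 165 CPM, with a difference of 0.67 (SE 0.15, adjusted p = 0.25). Both CSD libraries lay above both HC libraries, as they did for 20.1% of all genes in EC. Wee1, an E-box output kinase that was not among the genes to be named and was chosen after its values were seen, had 56.2 and 37.1 CPM against 24.6 and 19.6 CPM (1.14, SE 0.27, adjusted p = 0.29). Bhlhe41 in microglia had 75.3 and 74.9 CPM in CSD against 121 and 114 CPM in HC (-0.60, SE 0.22, adjusted p = 0.9999). Clock, Cry1, Cry2 and Rora in EC had differences of 0.29 (SE 0.18), 0.12 (SE 0.20), -0.05 (SE 0.28) and 0.20 (SE 0.14).

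Genes with the pattern most like each member's were read from 16 sums (4 classes with at least 50 cells in every library, 4 libraries) over 6444 genes, by Pearson's r of log2(CPM + 10). The classes were EC, microglia, pericytes and choroid plexus cells, so astrocytes and arterial smooth muscle took no part. These points share libraries and classes. Per3 was most like Tef, another member, with r = 0.97. Next came Tapt1 and Zfp398 for Per3, Srebf2, Cers5 and Cdc42ep5 for Dbp (r = 0.97 to 0.98), Apbb2, Agap1 and Cdc42ep4 for Tef (r = 0.98), and Stx3, Plk2 and Ocln for Noct (r = 0.96 to 0.98). Ciart was most like Tsc22d1 (r = 0.96) and Ccser2 (r = 0.95), Per1 like Kansl1, Fbxl20 and Med13l (r = 0.95 to 0.96), and Per2 like Ap5m1, Inpp5a and Syde1 (r = 0.96 to 0.97). Nr1d1 and Nr1d2 shared Paxbp1 among their 3 (r = 0.95 and 0.97), beside Nfx1 and Shc1 for Nr1d1 and Ccnl2 and Nr2c2 for Nr1d2. For Arntl, at 1.77 CPM on average, the highest r was 0.82, with Lyz2, followed by Ufsp2 and Arfrp1.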

How the data were processed

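For each of the 4 libraries the authors deposited raw UMI counts as a sparse matrix of genes by barcodes, with every barcode and no normalization. The submitters' processing notes name Cell Ranger 4.0 and GRCm38/mm10, the paper version 6.0 and the matrix header 3.1.0. Cells were barcodes that reached 500 UMIs and 250 genes with no more than 25% mitochondrial UMIs. A cell joined a class if at least 3 of its markers were detected, 2 times those of the next class (endothelial subtypes: 2 markers), which placed 12419 of 14415 cells (86.2%). Cells whose first class did not reach 2 times the markers of the next were thereby left out. Cells with fewer markers of another class stayed in, and no doublet caller was run.

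Counts were summed per class and library and tested with edgeR 4.0.16 (R 4.3.3; filterByExpr, TMM, quasi-likelihood test, two-sided, Benjamini-Hochberg, threshold 0.05), tested on simulated data beforehand. Libraries are pools of mice, so p-values measure the spread between pools. With a library left out, 1 library of its condition remained, so for CSD against HC only effect sizes are given. With 2 libraries against 2, an exact permutation test of a single gene cannot go below p = 0.33. DESeq2 1.42.0 was an alternative. Promoters came from RefSeq tables (GRCm38.p6). All members, the 7 other clock genes given in every case, Fkbp5, Tsc22d3, Sgk1, Fos, Junb and Egr1 were named whatever their test, and other list genes where they passed, with the 3 genes most correlated with each member, of which 1 is not reported here. The members and lists were chosen with earlier results of these data known.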

Additional observations from a re-analysis of the deposited data

Results flagged for a closer look

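Among the 9 classes, and counting a member in a class only with at least 20 UMIs there, in 4 of 194 pairs of classes a member was higher in both CSD libraries than in both HC libraries in 1 class and lower in both in the other (2.06%, against 3.92% over all genes). None of these differences was tested. Per2 was above HC in pericytes and below it in arterial smooth muscle, and the CSD to HC ratios of mean CPM differed by 0.63 on the log2 scale. Per2 in the choroid plexus against arterial smooth muscle differed by 0.39. The order of Per2 in arterial smooth muscle rested on 30.1 CPM in CSD 1 against 30.3 CPM in HC 2, from 15 and 8 UMIs. In the choroid plexus it rested on 19.4 CPM in CSD 2 against 19.2 CPM in HC 1. Per3 was above HC in ependymal cells and below it in astrocytes, a difference of 1.45, and Nr1d2 in the same classes differed by 1.73. Ependymal cells numbered 15 to 45 a library. The astrocyte side rested on HC 1, with 43 cells, whose summed fibroblast markers were 129 CPM against 1798 to 1924 CPM in the other libraries: without it the difference of CSD from HC in astrocytes was -0.29 instead of -1.05 for Per3 and -0.47 instead of -1.19 for Nr1d2.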

How the results depend on the processing

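Members called between CSD and HC remained 0 in every class under each alternative that kept every library, except 1 in capillary EC without the filter on low counts (Per1, 0.75). These alternatives were DESeq2, RLE scaling, library totals, no filter on low counts, at least 1000 UMIs, at most 10% mitochondrial UMIs, the complexity filter and a stricter gate. Fits of CSD against HC with a library left out kept 1 library of a condition, so their calls are not given. Without the filter on low counts 204 of 16458 genes were called in capillary EC. Among the listed alternatives that kept every library, the calls over all genes in EC differed. They ranged from 4 of 9576 in cells of at least 1000 UMIs to 60 of 3591 with DESeq2, against 5 of 9970. Between classes, with RLE scaling 3 members were called in EC (Per1, Tef and Ciart) instead of 5, where 2163 of 7950 genes were higher. Members called there were 2 to 6 with a library left out, and 2 without CSD 2, where 1812 of 6209 genes were higher. Genes higher in EC were 2391 of 7758 without CSD 1, 2150 of 6707 without HC 1 and 2467 of 7848 without HC 2. In microglia they were 3 without HC 1 instead of 5, where 2634 of 6707 genes were higher and 973 lower. Per2 then had no UMI left in T cells, and its difference could not be estimated. Ependymal cells had 1 without CSD 2 instead of 2 (1469 of 6209 genes higher and 1109 lower). They also had 1 without HC 2 (1862 of 7848 genes higher and 760 lower). Astrocytes had 2 without HC 1 instead of 4 (1376 of 6707 genes higher and 769 lower). In the main fit over 7950 genes, 2021 were higher and 1203 lower in ependymal cells, and 1736 higher and 1105 lower in astrocytes. The fit over the 6 classes of at least 30 cells was chosen after the data were seen. It called 6 of 9 members in the choroid plexus instead of 3 of 8. Of the 6, 1 was higher and 5 were lower, where 4001 of 11546 genes were higher and 3479 lower. Under the stricter gate, which left out classes, Per3 in the choroid plexus turned to 0.15. The causes of these changes were not tested. Under the stricter gate, classes with fewer than 10 cells in a library were not run.

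A fit with the replicate number as a block called 0 members in each class. What the number stands for is not given, and deviations of same-numbered libraries correlated over genes with r = 0.42 in microglia, 0.34 in venous EC, 0.07 in EC and -0.006 to 0.20 in the other classes. The block moved the calls over all genes in EC to 62.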
